A study of Homo sapiens with 78 samples.

Results

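The interaction of IL-1β and budesonide after 2 h of treatment was measured in A549, a human epithelial cell line from a lung carcinoma that serves as a model of the alveolar type II cell. After a night in serum-free medium, cells received fresh medium with no stimulus (NS), IL-1β at 1 ng/ml, budesonide at 300 nM, or IL-1β-plus-budesonide at the same doses. Each of these 4 groups held 4 libraries of poly(A) RNA at 2 h, or 16 libraries of the 78 in the series, which also covered 1, 6, 12 and 24 h. The interaction of a gene was its change from IL-1β to IL-1β-plus-budesonide, minus its change from NS to budesonide, on the log2 scale. It is 0 where the fold change of the cotreatment equals the product of both single fold changes. It is negative where the cotreatment reached less than that product and positive where it reached more. These folds are taken after 0.5 is added to every level, so near 0 they differ from folds of the listed levels. Of the 19652 genes listed, 13327 reached a TPM (a transcript level scaled by transcript length and library total) of at least 1 in at least 3 libraries of the series, and the interaction was tested in all of these.

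IL-1β binds its receptor on epithelial cells and, through the adapter MyD88 and the IKK kinases, releases nuclear factor κB (NF-κB) to the nucleus, where it switches on cytokine, chemokine and adhesion genes together with its own inhibitors. Budesonide, an inhaled glucocorticoid used in asthma, binds the glucocorticoid receptor (GR), which then acts in the nucleus, raising some genes directly and lowering many inflammatory genes. Several feedback inhibitors of inflammation are known targets of both pathways, so that cotreatment can act on a gene in ways that neither agent alone shows.

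The libraries carried the expression profile of epithelial cells. The keratin gene KRT8 lay between 2592 and 4683 TPM in the 16 libraries, and all 12 epithelial markers reached 1 TPM in every group. CD3E and MS4A1, which define T and B cells, were listed at 0 in all 16 libraries, the leukocyte gene PTPRC stayed at or below 0.710 TPM and the endothelial gene VWF at or below 0.0374 TPM. Other markers were measured at low levels, with the monocyte gene CD14 at 1.29 to 5.42 TPM and the collagen gene COL1A1 at 4.18 to 12.1 TPM. The 9 immune markers summed to 11.8 to 16.7 TPM per library, the 7 fibroblast markers to 7.38 to 18.3 TPM and the 6 endothelial markers to 0.413 to 1.20 TPM, and their part in the results was not tested. SFTPC, the surfactant gene that defines type II cells, reached only 1.25 TPM at most. Per library the values summed to 829440 to 902090 TPM, mitochondrially encoded genes took 13.1% to 15.5% of the sum. The study's methods give an approximate sequencing depth for all samples, but TPM keep no read counts of a single library. One library stood apart: the budesonide library number 3 lay at a distance of 0.311 from its group, against 0.104 to 0.168 for the other 15, so values without it are given for the called genes that lost their call or moved by 0.2 or more without it. In bulk RNA, fewer cells of a kind and less RNA per cell cannot be told apart.

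At 2 h, 46 genes had a negative and 27 a positive interaction (limma, adjusted p of 0.05 or less and at least 1 on the log2 scale), which is 0.345% and 0.203% of the genes tested. Without the minimum size, 86 were negative and 60 positive at the same adjusted p. The interaction of all genes tested had a median of 0.01 and a median SE of 0.20. Called interactions ran from -2.92 for IL1A to 2.23 for SAA1. The lowest values belonged to IL1A, IL23A, ZFP36, VCAM1, BIRC3 and NFKBIA, and the highest to SAA1, AXIN2, TMEM265, MT1M and MT1A. The order of low genes depends on the setting: over the alternatives VCAM1 ranged from -3.47 to -1.71 and MT1M from 1.21 to 3.37. Without the budesonide library number 3 the counts were 49 and 23, of which 43 and 23 were called with it too.

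**Figure D1:**
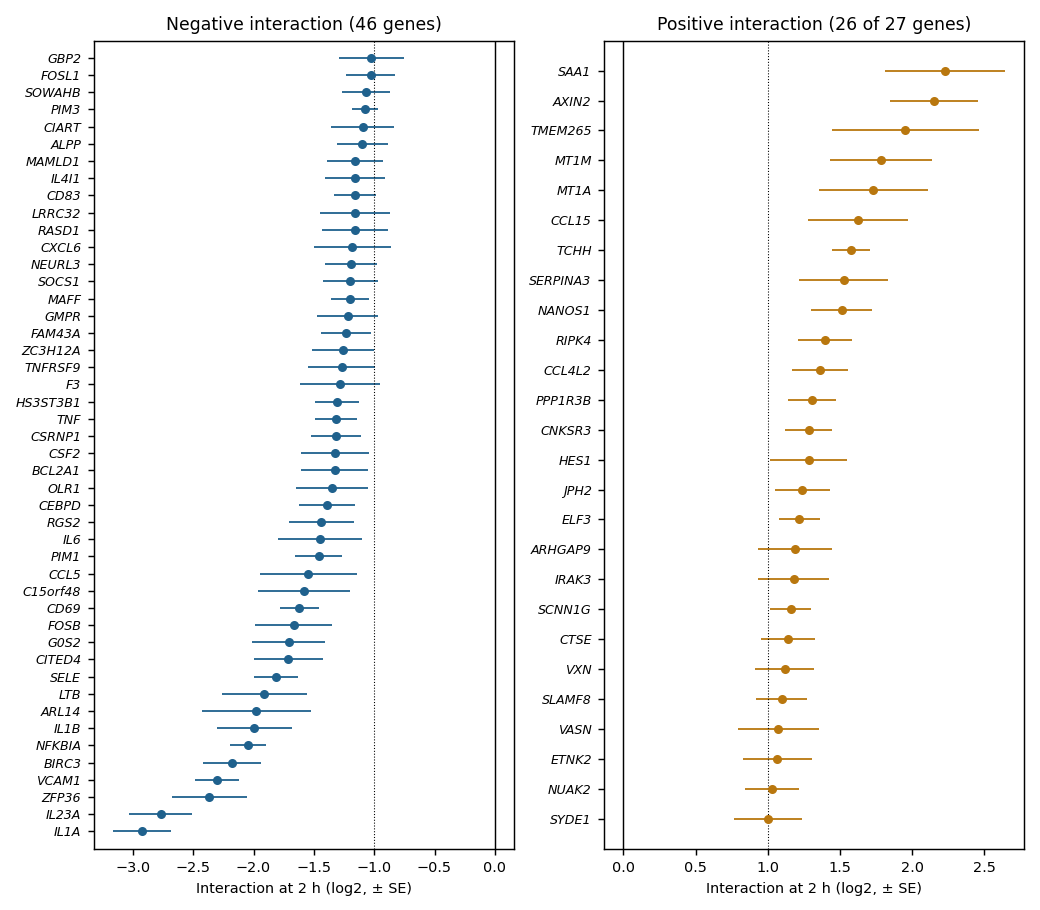
Interaction at 2 h on the log2 scale (horizontal axis, points, with bars of 1 SE) of the 46 genes with a negative interaction (left) and 26 of the 27 with a positive interaction (right), each a row, with the call minimum as a dotted line. IL1A lies lowest at -2.92 and SAA1 highest at 2.23, and most genes lie within 1 unit of the call minimum.

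The 2 lowest interactions belonged to cytokine genes that IL-1β raised and that were far lower with cotreatment. IL1A, which encodes the alarmin IL-1α, stood at 21.8, 20.3, 15.4 and 27.9 TPM in the IL-1β libraries and at 2.37, 2.01, 1.75 and 3.24 TPM in the cotreated ones. It was at or near 0 in the other groups, with no value above 0.0647 TPM, so the interaction (-2.92 ± 0.24, adjusted p = 2.32e-14) is close to the loss from IL-1β to cotreatment. At such levels a decrease with budesonide in the absence of IL-1β could not be seen. The interaction thus cannot be told from an equal fold decrease in both settings, and the same limit holds for IL6, VCAM1, SELE and CD69 below. IL23A, which encodes the p19 subunit of IL-23, read 10.3, 12.0, 9.50 and 15.1 TPM with IL-1β and 1.37, 1.70, 1.08 and 1.48 TPM with cotreatment. Budesonide alone left it at 0.228 to 0.397 TPM, beside 0.228 to 0.352 TPM in NS. The IL-1β and cotreated libraries of both genes did not overlap.

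IL1B, the gene of the stimulus itself, read 9.21, 6.84, 7.29 and 12.1 TPM with IL-1β and 1.84, 1.14, 1.67 and 2.81 TPM with cotreatment, an interaction of -1.99 ± 0.31 (adjusted p = 8.47e-06). LTB, a membrane-bound TNF family ligand, read 25.7, 19.5, 15.9 and 19.9 TPM against 5.87, 3.95, 4.02 and 5.32 TPM, and its interaction was -1.91 ± 0.35. Cotreatment again gave the lower values in every library. TNF stood at 14.5, 13.8, 9.78 and 14.8 TPM with IL-1β and at 4.90, 4.36, 4.04 and 6.47 TPM with both agents. CSF2, which encodes the growth factor GM-CSF, stood at 37.6, 28.7, 12.8 and 22.4 TPM and at 13.5, 10.3, 5.09 and 11.0 TPM, so that its IL-1β library number 3 fell below the highest cotreated library. Both had an interaction of -1.32, with SEs of 0.17 and 0.28. The call of TNF held in every setting that tested it, while that of CSF2 was lost when the 16 libraries of 2 h were fitted alone with the replicate number as a block (the blocked 2 h fit, adjusted p = 0.11). IL6 was listed at 0 in all 8 libraries without IL-1β, read 3.11, 4.65, 4.74 and 0.976 TPM with it and 1.06, 0.728, 0.953 and 0.426 TPM with cotreatment. Its interaction of -1.45 ± 0.35 was not called without the IL-1β library number 2 or 3 or the cotreated library number 4 (-1.30 to -1.25, adjusted p from 0.0554 to 0.0734), nor in the blocked 2 h fit (adjusted p = 0.11).

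Of 18 tested cytokine and growth factor genes 7 were negative (IL1A, IL1B, IL6, IL23A, CSF2, TNF and LTB) and 0 positive, which is 38.9% of the list beside 0.345% of all genes tested. The median over the list was -0.25, beside 0.01 over all genes. The list was chosen with earlier results of these data known, so its share is a description. All genes tested also include genes that IL-1β did not raise, so they are not a like background. Of 13 tested chemokine genes, CCL5 (-1.54 ± 0.40, adjusted p = 0.0303) and CXCL6 (-1.18 ± 0.32, adjusted p = 0.0412), which draw T cells and neutrophils, were negative (15.4% of the list), and the median over the list was -0.41. These 2 calls were uncertain, since leaving out 1 library ended the call of CCL5 for 6 of the 16 libraries (-1.54 to -1.16, adjusted p from 0.0536 to 0.216) and that of CXCL6 for 10 (-1.21 to -0.91, adjusted p from 0.0524 to 0.25). In the blocked 2 h fit neither was called (adjusted p = 0.153 and 0.178). CXCL2, a neutrophil chemokine with far higher values, read 586 TPM on average with IL-1β and 414 TPM with cotreatment, and its interaction of -0.68 ± 0.25 did not pass the test (adjusted p = 0.333). The list did not hold all chemokine genes. Outside it, the low genes CCL15 (1.62, limma adjusted p = 0.00273) and CCL4L2 (1.36, adjusted p = 8.44e-07) were called positive. Both calls held without any single library, and each was lost in 2 other settings.

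VCAM1 and SELE, adhesion molecules that leukocytes bind, were also lower with cotreatment than with IL-1β alone. VCAM1, the ligand of the integrin VLA-4, read 4.56, 3.65, 2.55 and 1.54 TPM with IL-1β and 0.400, 0.238, 0.105 and 0.0734 TPM with cotreatment (interaction -2.30 ± 0.18, adjusted p = 5.81e-15). This SE understates the spread of these 2 groups, because the fit holds 1 estimate of the spread of VCAM1 over all 20 groups. SELE, the selectin of activated endothelium, read 9.39, 10.8, 8.63 and 12.4 TPM and 2.16, 2.34, 2.49 and 3.22 TPM (-1.81 ± 0.18). In both genes the libraries without IL-1β held no more than 0.0342 TPM. Of the other surface proteins described here, CD83, CD69, OLR1 and LRRC32 were picked after their values were seen. CD83, an immunoglobulin family protein known from mature dendritic cells, read 23.2, 23.3, 22.0 and 22.2 TPM with IL-1β and 10.9, 9.43, 10.5 and 10.9 TPM with cotreatment, the tightest of these groups (-1.16 ± 0.17). CD69, an early activation antigen, was listed at 0 in the 8 libraries without IL-1β and its interaction was -1.62 ± 0.16. OLR1, a scavenger receptor for oxidized lipoprotein, averaged 32.3 ± 4.88 TPM (SD, n = 4) with IL-1β and 9.73 ± 2.24 TPM with cotreatment (-1.35 ± 0.30). The costimulatory receptor TNFRSF9 (4-1BB) and the TGF-β docking protein LRRC32 were also negative, at -1.27 ± 0.28 and -1.16 ± 0.29. OLR1 and TNFRSF9 were not called in the blocked 2 h fit (adjusted p = 0.0513 and 0.0951). The call of LRRC32 was lost for 6 of the 16 libraries when that library was left out (-1.10 to -1.02, adjusted p from 0.0615 to 0.096).

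A second kind of negative interaction belonged to genes that each agent raised alone and whose level with cotreatment lay near or little above that with IL-1β. NFKBIA encodes IκBα, which holds NF-κB in the cytoplasm. It read 30.8, 34.0, 45.6 and 42.3 TPM in NS, 150, 158, 176 and 146 TPM with budesonide, 814, 814, 718 and 753 TPM with IL-1β and 806, 842, 719 and 732 TPM with both. Budesonide raised NFKBIA by 2.05 on the log2 scale in cells without IL-1β, the cotreated libraries overlapped the IL-1β ones, and the interaction was -2.05 ± 0.15 (adjusted p = 5.47e-16). BIRC3, which encodes the inhibitor of apoptosis cIAP2, read 11.8, 10.8, 9.21 and 10.6 TPM in NS, 55.3, 50.9, 35.5 and 46.6 TPM with budesonide, 403, 346, 250 and 277 TPM with IL-1β and 397, 298, 250 and 251 TPM with both. The interaction of BIRC3 was -2.18 ± 0.24 (adjusted p = 6.49e-10), and cotreatment differed from IL-1β alone by -0.09 ± 0.17 (adjusted p = 0.88). The neighboring gene BIRC2, which encodes cIAP1, averaged 23.7, 26.0, 97.4 and 64.3 TPM in NS, budesonide, IL-1β and cotreatment, and its interaction of -0.73 ± 0.18 passed the adjusted p (0.0196) but not the minimum size.

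ZFP36 showed the same pattern with nearly equal single effects. The gene encodes tristetraprolin, which destabilizes cytokine mRNAs. It read 9.19, 8.90, 10.6 and 15.2 TPM in NS, 62.9, 58.9, 66.4 and 84.6 TPM with budesonide, 79.9, 66.4, 61.5 and 64.0 TPM with IL-1β and 87.4, 75.9, 76.8 and 78.4 TPM with both. The 3 treated groups overlapped, each agent alone gave a log2 change of 2.60, and the interaction was -2.37 ± 0.31 (adjusted p = 1.45e-07). ZC3H12A, which encodes the mRNA-degrading protein regnase-1, averaged 7.33 ± 1.73, 22.7 ± 7.72, 130 ± 5.92 and 158 ± 20.8 TPM (SD, n = 4) in NS, budesonide, IL-1β and cotreatment. Its interaction was -1.26 ± 0.26 although cotreatment gave the highest mean: budesonide changed it by 1.54 in the absence of IL-1β and by 0.28 in its presence. The transcription factor genes CEBPD and MAFF behaved alike, with interactions of -1.39 ± 0.23 and -1.20 ± 0.16. CEBPD averaged 15.0, 50.5, 107 and 136 TPM in that order of groups, and MAFF 3.28, 8.99, 36.9 and 40.2 TPM. PIM3, a kinase that supports cell survival, averaged 10.5 ± 0.327 TPM in NS and 28.7 ± 3.12, 25.1 ± 1.94 and 31.7 ± 2.51 TPM with budesonide, IL-1β and both (-1.08 ± 0.11, adjusted p = 4.39e-11). Every cotreated library of PIM3 lay above every IL-1β library, with a difference of 0.33 ± 0.08 on the log2 scale.

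Promoter sequences of 3 of these negative genes and 2 positive ones are shown because these genes respond to IL-1β, to budesonide or to both in different ways and all hold the same motif. They are the 250 bases before the transcription start in RefSeq, build GRCh38.p14, written 5′ to 3′ on the strand of the gene, and capitals mark matches on either strand to an NF-κB-type motif, which reads GGG, any 2 bases, TT, any base and CC.
NFKBIA (chr14:35404750-35404999, minus strand): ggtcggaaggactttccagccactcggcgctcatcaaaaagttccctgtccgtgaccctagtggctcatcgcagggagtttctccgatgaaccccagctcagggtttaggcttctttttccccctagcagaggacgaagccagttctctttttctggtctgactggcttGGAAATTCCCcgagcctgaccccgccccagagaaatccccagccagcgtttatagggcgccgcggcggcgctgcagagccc
BIRC3 (chr11:102317234-102317483, plus strand): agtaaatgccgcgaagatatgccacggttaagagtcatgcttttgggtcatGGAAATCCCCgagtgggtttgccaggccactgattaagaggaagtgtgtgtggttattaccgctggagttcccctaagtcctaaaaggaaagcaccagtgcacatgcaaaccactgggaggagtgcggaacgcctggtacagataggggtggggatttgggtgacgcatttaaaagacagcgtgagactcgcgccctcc
VCAM1 (chr1:100719492-100719741, plus strand): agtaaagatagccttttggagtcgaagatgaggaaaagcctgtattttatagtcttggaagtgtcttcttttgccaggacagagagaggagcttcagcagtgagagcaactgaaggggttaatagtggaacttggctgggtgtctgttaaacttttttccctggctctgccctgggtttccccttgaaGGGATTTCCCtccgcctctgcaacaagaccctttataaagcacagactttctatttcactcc
ELF3 (chr1:202010337-202010586, plus strand): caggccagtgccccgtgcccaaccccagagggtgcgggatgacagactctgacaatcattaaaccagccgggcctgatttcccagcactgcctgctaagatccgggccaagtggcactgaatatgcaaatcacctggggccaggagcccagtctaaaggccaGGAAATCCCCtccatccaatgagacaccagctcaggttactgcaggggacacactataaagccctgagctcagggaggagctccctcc
IRAK3 (chr12:66188964-66189213, plus strand): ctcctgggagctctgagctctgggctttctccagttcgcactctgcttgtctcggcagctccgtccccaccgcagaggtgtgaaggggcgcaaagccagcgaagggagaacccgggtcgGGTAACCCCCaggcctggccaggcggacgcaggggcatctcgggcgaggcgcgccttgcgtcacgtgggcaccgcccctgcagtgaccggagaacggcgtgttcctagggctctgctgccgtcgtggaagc
A RefSeq promoter was matched for 52 of the 73 called genes and for 10576 of the 13327 tested. In windows from 250 bases before to 50 after the start, read on both strands, the NF-κB-type motif lay in 9 of 37 promoters of negative genes (24.3%), in 5 of 15 of positive genes (33.3%) and in 6.72% of all tested. The matched negative genes were BIRC3, CITED4, CXCL6, IL6, LTB, NFKBIA, SELE, TNFRSF9 and VCAM1, and the matched positive ones were CTSE, ELF3, ETNK2, IRAK3 and SLAMF8. The AP-1 motif TGANTCA lay in 10.8%, 13.3% and 4.70% of the promoters of negative, positive and all tested genes. The GR-type motif ACANNNTGT lay in 0 of 37, in 2 of 15 (CNKSR3 and SLAMF8) and in 2.67% of all tested. A match is a description of the letters and not a measured site.

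The third kind of negative interaction went the other way, with genes that budesonide raised and that stayed lower when IL-1β was present. RGS2, a regulator of G protein signaling known as a glucocorticoid target, read 5.86, 6.14, 7.40 and 6.85 TPM in NS, 42.3, 47.9, 63.5 and 51.0 TPM with budesonide, 4.47, 4.85, 4.28 and 5.83 TPM with IL-1β and 10.5, 11.9, 19.9 and 14.5 TPM with both. All cotreated libraries lay below all budesonide libraries and above all IL-1β libraries, with an interaction of -1.44 ± 0.27 (adjusted p = 0.000473). SOCS1, an inhibitor of JAK kinases, read 1.54, 2.49, 2.69 and 2.62 TPM with budesonide and 0.951, 1.23, 1.21 and 1.61 TPM with both, so that these groups overlapped in 1 library each (-1.20 ± 0.23). GMPR, an enzyme of purine nucleotide metabolism, averaged 1.98 ± 0.358 TPM with budesonide and 0.552 ± 0.145 TPM with both (-1.22 ± 0.25). The same holds at low levels for ALPP, a placental-type alkaline phosphatase, and CIART, a repressor of the circadian clock, whose interactions were -1.10 ± 0.21 and -1.09 ± 0.26. CIART was not called without the budesonide library number 3 (-0.98, adjusted p = 0.0493), the IL-1β library number 3 or the cotreated library number 1, nor in the blocked 2 h fit (adjusted p = 0.0946).

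In CITED4 and PIM1 either agent alone gave a higher mean than NS and the cotreated mean lay close to that of NS. CITED4, a coactivator of CBP and p300, read 5.23, 8.04, 8.34 and 6.97 TPM in NS, 13.4, 17.1, 24.7 and 16.1 TPM with budesonide, 11.6, 11.2, 11.7 and 12.2 TPM with IL-1β and 6.14, 8.91, 9.33 and 9.25 TPM with both. PIM1, a kinase related to PIM3, read 14.2, 17.0, 13.7 and 16.6 TPM in NS, 22.4, 22.7, 13.7 and 21.9 TPM with budesonide, 32.9, 34.1, 28.9 and 24.0 TPM with IL-1β and 16.5, 15.5, 10.9 and 12.1 TPM with both. Every cotreated library of both genes lay below every IL-1β library. The interactions were -1.71 ± 0.29 for CITED4 and -1.46 ± 0.19 for PIM1, and -1.63 for PIM1 without the budesonide library number 3, whose value stood apart from the other 3. The change of PIM1 from NS to budesonide alone was 0.36.

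Other negative genes that IL-1β raised included BCL2A1, an antiapoptotic BCL2 family member, at 130, 139, 138 and 108 TPM with IL-1β and 43.3, 49.2, 46.0 and 38.7 TPM with both (-1.33 ± 0.28). C15orf48, which encodes a mitochondrial protein of inflamed cells, averaged 123 ± 25.2 TPM with IL-1β and 49.1 ± 10.1 TPM with both (-1.58 ± 0.38), and its call was lost without NS library number 3 or cotreated library number 3 (-1.45 to -1.42, adjusted p from 0.0503 to 0.0567). G0S2, an inhibitor of lipolysis, averaged 34.0 ± 2.48 and 19.8 ± 2.69 TPM (-1.71 ± 0.30). Among AP-1 genes, FOSB averaged 9.37 ± 2.68 TPM with IL-1β and 2.93 ± 1.15 TPM with both (-1.67 ± 0.32), and FOSL1 19.2 ± 2.15 and 6.31 ± 0.934 TPM (-1.03 ± 0.20). FOSL1 lay close to the minimum size and fell under it for 5 of the 16 libraries when that library was left out (-0.999 to -0.869). F3, the tissue factor that starts coagulation, rose with either agent and averaged 8.63 TPM with IL-1β and 8.58 TPM with both (-1.28 ± 0.33, adjusted p = 0.028), a call lost for 5 of the 16 left-out libraries (-1.27 to -1.03). ARL14, a small GTPase, spread more widely, from 4.79 to 15.2 TPM with IL-1β and from 0.980 to 2.18 TPM with both (-1.98 ± 0.45, adjusted p = 0.00681).

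**Figure D2:**
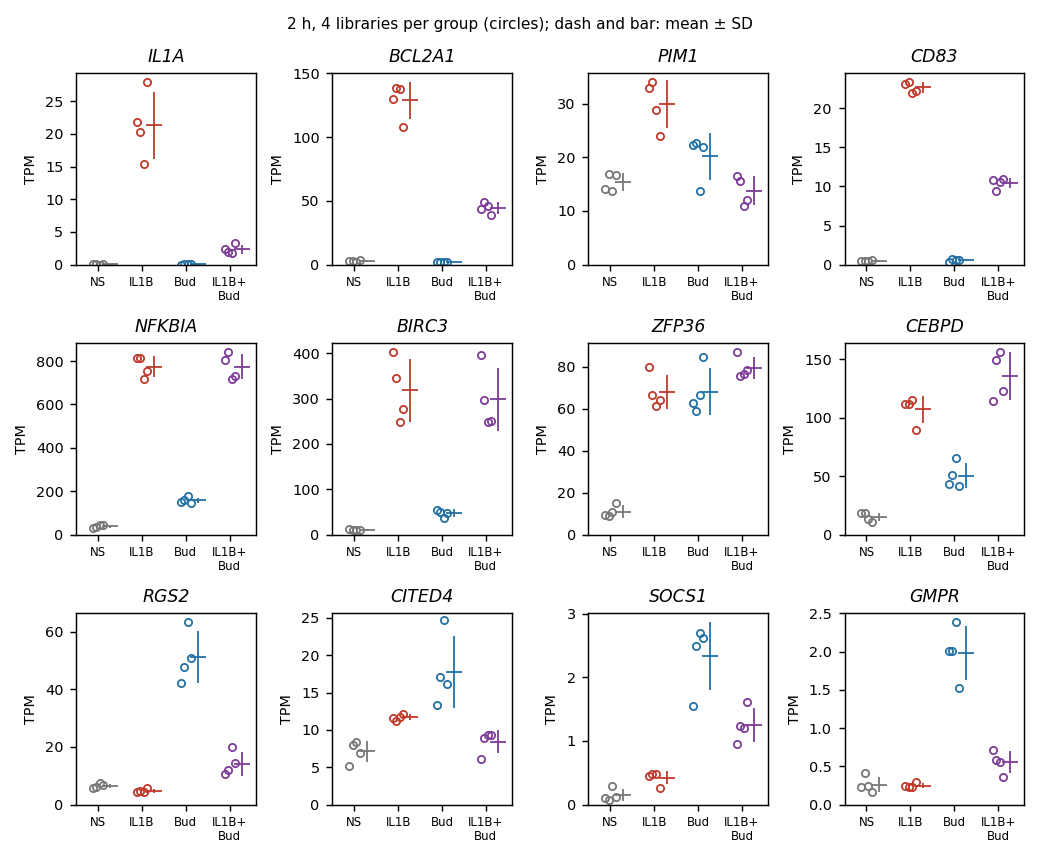
TPM at 2 h (vertical axis, linear and from 0) of 12 genes with a negative interaction in NS, IL1B (IL-1β), Bud (budesonide) and IL1B+Bud libraries, with circles for the 4 libraries and a dash and bar for the mean and SD. In the top row cotreatment lies below IL-1β, in the middle row it lies near IL-1β although budesonide alone raised the gene, and in the bottom row it lies below budesonide.

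SERPINA3 and SAA1 encode acute phase proteins, which rise in plasma during inflammation, and both had a positive interaction. SERPINA3, which encodes the protease inhibitor α1-antichymotrypsin, read 2.32, 3.46, 4.34 and 3.70 TPM in NS, 3.15, 3.31, 6.94 and 3.43 TPM with budesonide, 130, 125, 115 and 128 TPM with IL-1β and 396, 423, 431 and 412 TPM with both. Budesonide alone changed it by 0.21 and on top of IL-1β by 1.73, so the interaction was 1.52 ± 0.31 (adjusted p = 0.0014). It was 1.77 without the budesonide library number 3. SAA1, serum amyloid A1, read 0.116, 0, 0.0792 and 1.08 TPM in NS, 0.319, 0.761, 0.685 and 1.05 TPM with budesonide, 5.26, 1.55, 0.919 and 2.89 TPM with IL-1β and 26.8, 21.2, 12.4 and 23.6 TPM with both. The cotreated libraries of both genes lay above every other library. The interaction of SAA1 was 2.23 ± 0.42 (adjusted p = 0.000381), and it was not called with a pseudocount of 0.1 TPM or in 3 fits to the libraries of 2 h only, among them the blocked one (adjusted p = 0.0513). Its close relative SAA2 averaged 2.31 TPM with IL-1β and 7.42 TPM with both (1.15 ± 0.42, adjusted p = 0.338), and 40.3% of the 31-base words of SAA1 transcripts also occur in other genes, so reads may have been divided between them.

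SCNN1G, CNKSR3 and IRAK3 were also highest with cotreatment. SCNN1G encodes the γ subunit of the epithelial sodium channel, and CNKSR3 a scaffold through which steroid hormones act on that channel. SCNN1G read 0.0594, 0.110, 0.107 and 0.111 TPM in NS, 1.20, 1.25, 1.22 and 1.27 TPM with budesonide, 0.344, 0.386, 0.338 and 0.186 TPM with IL-1β and 4.62, 4.97, 5.14 and 4.32 TPM with both (1.16 ± 0.14, adjusted p = 2.54e-08). Because its NS level is near 0, the size of this interaction depends on the pseudocount. Over the alternatives it ranged from 0.81 to 1.35, and the call was lost with a pseudocount of 0.1 TPM. CNKSR3 read 4.40, 4.69, 3.50 and 4.23 TPM in NS, 7.00, 6.53, 5.21 and 5.44 TPM with budesonide, 6.87, 6.83, 5.98 and 5.39 TPM with IL-1β and 25.2, 24.0, 21.5 and 18.9 TPM with both (1.28 ± 0.16, adjusted p = 6.52e-08). Neither gene had a library outside cotreatment as high as the lowest cotreated one. IRAK3, an inhibitor of IL-1 receptor and Toll-like receptor signaling, averaged 0.0453, 0.424, 0.541 and 3.41 TPM in NS, budesonide, IL-1β and cotreatment (1.18 ± 0.25, adjusted p = 0.00195). Its budesonide library number 3 read 0.104 TPM, beside 0.496, 0.521 and 0.574 TPM in the others, and without it the interaction was 0.99, just under the minimum size. The call was also lost with a pseudocount of 0.1 TPM and when the 16 libraries of 2 h were fitted alone. In the TPM means themselves, with no pseudocount, cotreatment lay below the product of the single folds of IRAK3. Its positive sign thus rests on the 0.5 TPM added to levels near 0.

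The metallothionein genes MT1A and MT1M, whose products bind zinc and copper, had their highest levels with cotreatment. MT1A read 6.89, 5.23, 7.29 and 6.62 TPM in NS, 4.01, 6.42, 11.8 and 6.26 TPM with budesonide, 3.36, 4.96, 5.15 and 3.95 TPM with IL-1β and 15.4, 17.3, 16.6 and 14.2 TPM with both (1.73 ± 0.38, adjusted p = 0.00338). Without the budesonide library number 3 the interaction of MT1A was 1.99. MT1M was listed at 0 in 11 of the 12 libraries without cotreatment, at 0.744 TPM in the budesonide library number 2 and at 1.32, 1.51, 1.68 and 2.25 TPM with both (1.78 ± 0.35). NANOS1, an RNA-binding regulator of translation, also stood highest with cotreatment, at 5.16, 4.59, 6.55 and 5.57 TPM where no other library passed 2.74 TPM (1.51 ± 0.21, adjusted p = 7.01e-07). Other genes with their highest level in cotreatment were ETNK2, an ethanolamine kinase, at 21.6 ± 1.26 TPM, and TCHH, a structural protein of hair follicles, at 6.12 ± 0.502 TPM. Their interactions were 1.06 ± 0.24 and 1.58 ± 0.13. That of ETNK2 was 0.91 and 0.99, under the minimum size, without the NS library number 3 or the IL-1β library number 4. Some 45.0% of the 31-base words of MT1M and 18.9% of those of MT1A are shared with other genes. Among low genes of the same kind, the chemokine gene CCL15 reached 1.44 to 4.31 TPM and CCL4L2 1.14 to 2.35 TPM with cotreatment.

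In a further group the positive interaction reflected a decrease with budesonide that was smaller, absent or reversed when IL-1β was present. ELF3, an epithelial transcription factor of the ETS family, read 247, 265, 272 and 217 TPM in NS, 113, 110, 94.6 and 89.6 TPM with budesonide, 256, 280, 326 and 281 TPM with IL-1β and 278, 269, 270 and 261 TPM with both. The budesonide libraries lay apart from all others, and the interaction was 1.22 ± 0.14 (adjusted p = 6.41e-09). AXIN2, a feedback inhibitor of Wnt signaling, read 5.43, 8.19, 9.89 and 6.35 TPM in NS, 1.77, 1.95, 2.73 and 1.88 TPM with budesonide, 5.99, 6.58, 7.03 and 5.12 TPM with IL-1β and 8.20, 8.77, 11.1 and 8.97 TPM with both (2.15 ± 0.30, adjusted p = 9.68e-07). Every cotreated library of AXIN2 lay above every IL-1β library. NUAK2, a kinase of the AMPK family, averaged 14.6, 7.30, 24.3 and 25.3 TPM in NS, budesonide, IL-1β and cotreatment (1.03 ± 0.19), and fell under the minimum size for 5 of the 16 left-out libraries (0.87 to 0.99), lowest for the budesonide library number 3. BHLHE40, a repressor of the clock, fell from 43.5 to 18.3 TPM with budesonide and less, from 53.8 to 42.7 TPM, in the presence of IL-1β. Its interaction of 0.96 ± 0.20 stopped short of the minimum size (adjusted p = 0.00184).

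The reverse pattern, a decrease with IL-1β that was absent with budesonide, was seen in RIPK4 and PPP1R3B. RIPK4, a kinase of epidermal differentiation, read 4.39, 3.95, 5.07 and 5.58 TPM in NS, 5.54, 5.06, 4.15 and 6.22 TPM with budesonide, 1.77, 1.40, 1.63 and 2.37 TPM with IL-1β and 5.88, 5.50, 5.74 and 7.07 TPM with both (1.39 ± 0.19, adjusted p = 2.67e-07). PPP1R3B, a glycogen-targeting subunit of protein phosphatase 1, averaged 3.94, 3.01, 1.39 and 3.19 TPM in NS, budesonide, IL-1β and cotreatment (1.30 ± 0.17). In HES1, a repressor downstream of Notch, and VASN, a membrane protein that binds TGF-β, each agent alone lowered the level and the combination went little further. HES1 averaged 5.32 ± 1.05, 1.65 ± 0.242, 1.11 ± 0.459 and 0.947 ± 0.354 TPM in the same order (1.28 ± 0.27). VASN averaged 4.49 ± 0.94, 2.01 ± 0.893, 1.24 ± 0.398 and 1.30 ± 0.473 TPM (1.07 ± 0.28, adjusted p = 0.0303), and its call was lost for 10 of the 16 left-out libraries (0.91 to 1.08, adjusted p from 0.0534 to 0.152). Without the budesonide library number 3 it was 1.29 (adjusted p = 0.0028).

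**Figure D3:**
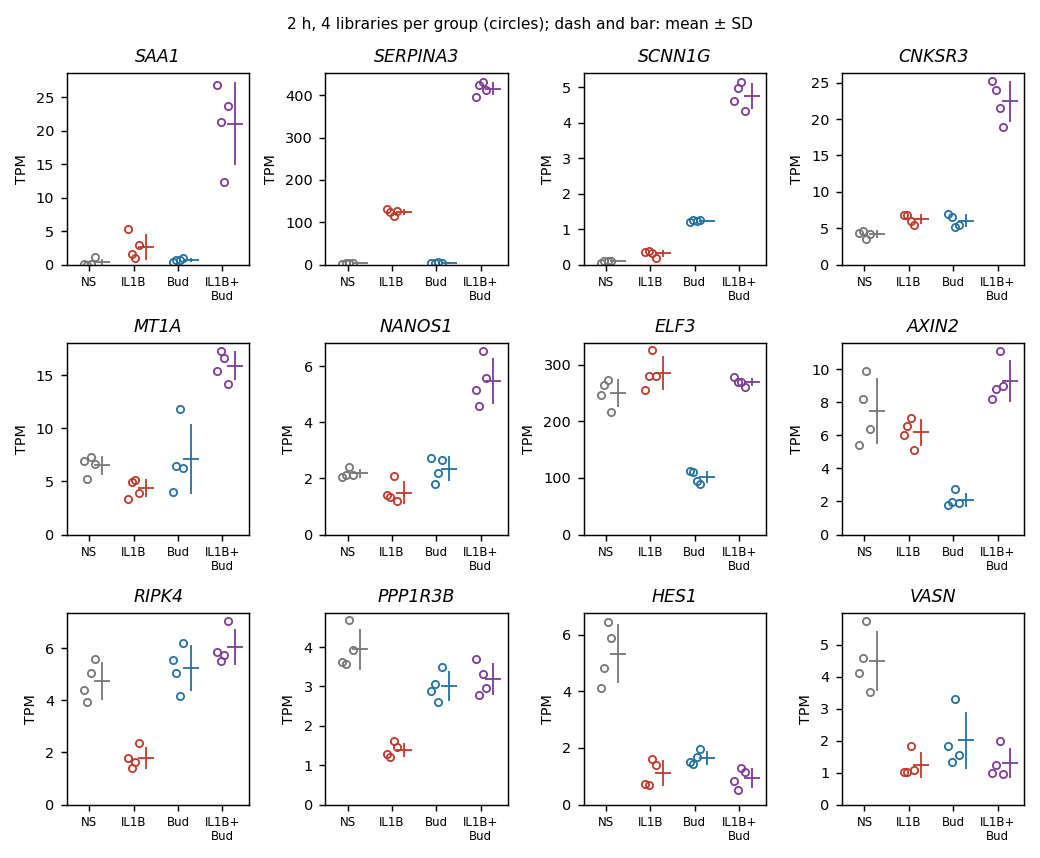
TPM at 2 h (vertical axis, linear and from 0) of 12 genes with a positive interaction in NS, IL1B (IL-1β), Bud (budesonide) and IL1B+Bud libraries, with circles for the 4 libraries and a dash and bar for the mean and SD. Cotreatment stands highest from SAA1 to NANOS1, budesonide alone lowest in ELF3 and AXIN2, IL-1β alone lowest in RIPK4 and PPP1R3B, and NS highest in HES1 and VASN.

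Since the log2 interaction asks whether fold changes multiply, the effects were also added in TPM. For each gene the effect of IL-1β and that of budesonide, each as a difference from NS, were summed and subtracted from the effect of cotreatment, as a description with no test. The same 2 h libraries had chosen the genes, which favours departures in the direction of the call. Of the 46 negative genes, 45 fell below the sum and 42 did so by more than 2 SE, while all 27 positive genes exceeded it by more than 2 SE. The exceptions were ZC3H12A, CEBPD, BIRC3 and MAFF. For ZC3H12A the cotreatment effect of 151 TPM was above the sum of 138 TPM (difference 13.2 ± 11.5), for CEBPD it was 121 against 128 TPM (-6.86 ± 13.2), for BIRC3 288 against 345 TPM (-56.3 ± 49.2), and for MAFF 36.9 against 39.3 TPM (-2.44 ± 1.38). These 4 genes were thus below a product of folds but within 2 SE of a sum of effects. NFKBIA reached 737 TPM against a sum of 856 TPM (-119 ± 38.6), and ZFP36 68.6 against 114 TPM (-45.6 ± 7.62). SERPINA3 gave the largest excess among the called genes, 412 TPM against a sum of 122 TPM (290 ± 8.17). For ELF3 the sum was a loss of 113 TPM and the cotreatment effect a gain of 19.3 TPM.

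**Figure D4:**
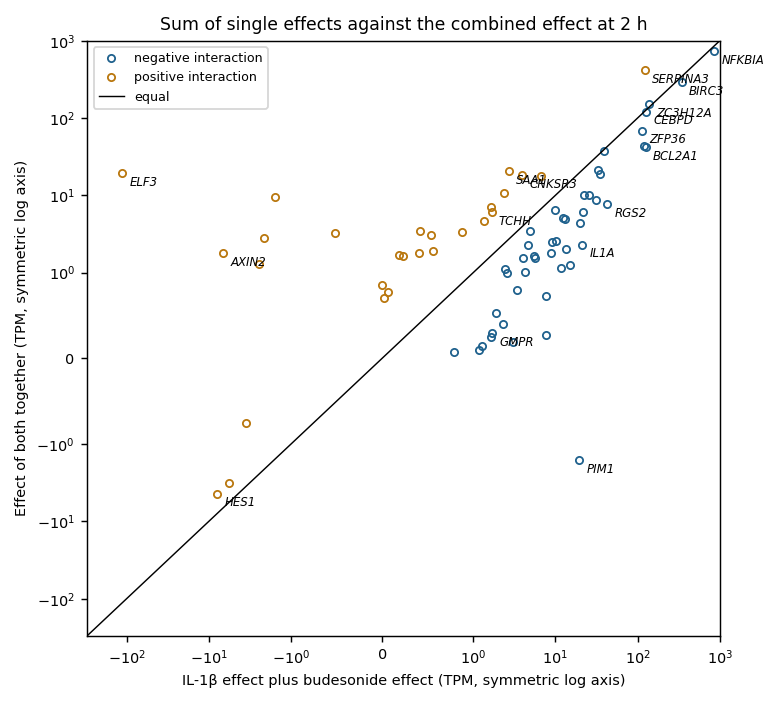
Effect of cotreatment against NS (vertical axis) and sum of the single effects of IL-1β and budesonide (horizontal axis), in TPM on symmetric log axes, for the 73 called genes, with the line of equal values. Of the 46 negative genes 45 lie below the line, with ZC3H12A just above it, and all 27 positive genes lie above it.

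Calls in the other gene lists stand beside 0.345% negative and 0.203% positive among all genes tested, and the lists' medians beside 0.01. These lists too were chosen with earlier results of these data known. Of 32 tested NF-κB subunits and feedback genes NFKBIA and ZC3H12A were negative (6.25%) and IRAK3 positive (3.12%), with a median of 0.02. RELA, the transactivating subunit, averaged 57.8 TPM with IL-1β and 35.5 TPM with both, and its interaction of -0.89 ± 0.23 (adjusted p = 0.0326) was under the minimum size. TNFAIP3, which encodes the deubiquitinase A20, averaged 126 and 119 TPM, at -0.56 ± 0.33. Of 32 tested GR targets RGS2, CEBPD, NFKBIA and RASD1 were negative (12.5%) and 0 positive, with a median of -0.30. RASD1, a Ras-like G protein, was not called without the IL-1β library number 3 (-0.98, adjusted p = 0.0608). Budesonide raised ANGPTL4, a regulator of lipoprotein lipase, from 6.67 to 60.9 TPM in the absence of IL-1β and from 6.84 to 63.8 TPM in its presence, and the interaction was 0.06 ± 0.25. CEBPB (-0.87 ± 0.17) and DDIT4 (-0.55 ± 0.13), a stress-induced inhibitor of mTORC1, passed the adjusted p (0.000714 and 0.0157) but not the minimum size.

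Of 24 tested immediate early genes FOSB, FOSL1 and MAFF were negative (12.5%), and the median was -0.26. Of 42 tested genes of apoptosis BIRC3, BCL2A1 and TNFRSF9 were negative (7.14%), with a median of -0.08. The proapoptotic BBC3, known as PUMA, averaged 44.6 TPM with IL-1β and 18.2 TPM with both (-0.82 ± 0.16, adjusted p = 0.000596), again under the minimum size. Adhesion, matrix and protease genes had VCAM1 negative of 22 tested (4.55%) and a median of -0.33. PLAUR, the urokinase receptor, fell short at -0.95 ± 0.20 (adjusted p = 0.00273). Of 19 tested acute phase, complement and prostanoid genes SAA1 and SERPINA3 were positive (10.5%), with a median of 0.09. Of 31 tested interferon-stimulated genes GBP2, a guanylate-binding protein, was negative at -1.02 ± 0.27, and its call was lost for 11 of the 16 left-out libraries (-1.05 to -0.89, adjusted p from 0.0527 to 0.162) and in the blocked 2 h fit (adjusted p = 0.0717). GBP1, its relative, averaged 3.32 TPM with IL-1β and 1.12 TPM with both (-1.28 ± 0.42), with an adjusted p of 0.202 that became 0.0129 with the replicate number as a block in the fit to all 78 libraries. Among acute phase genes the iron-binding LCN2 (-1.06 ± 0.38) likewise went from an adjusted p of 0.294 to 0.0104 with that block, and stood at -0.82 without the budesonide library number 3. TAP1, the antigen peptide transporter, pointed the other way at 0.67 ± 0.17 (adjusted p = 0.0298). Of 33 tested early transcriptional regulators SOCS1 was negative and HES1 and ELF3 were positive. Of 19 tested dual-specificity phosphatases and mRNA-destabilizing genes ZFP36 was negative, and of 10 tested ion transport and surfactant genes SCNN1G was positive. None was called by limma among 12 EGFR pathway genes, 13 of the TGF-β superfamily, 14 of the clock, 22 of the cell cycle and 14 receptors and enzymes of the treatments, nor among 11 reference genes, whose interactions lay between -0.27 and 0.05. At an unadjusted limma p under 0.05 these lists held 2, 2, 6, 1, 2 and 0 genes, beside 770 of all 13327 genes tested. The clock list did not hold CIART, the clock repressor called negative above.

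The 4 other times, each with its own libraries, gave the interaction of the same genes earlier and later. Of the 46 genes negative at 2 h, 7 were called negative at 1 h, beside 0.0825% of all genes tested, and 33 at 6 h, beside 1.97%. At 12 h there were 23 (background 1.67%) and at 24 h 25 (1.88%). Of the 27 positive genes, 2 were called positive at 1 h, beside 0.015% of all genes, and 12 at 6 h, beside 0.998%. At 12 h there were 4 (background 1.28%) and at 24 h 2 (3.11%). At 6 h these were 71.7% of the negative and 44.4% of the positive genes, against 1.97% and 0.998% of all genes. At 24 h the median interaction of the positive genes was 0.12, beside -1.12 for the negative ones. NS at 6 h and cotreatment at 12 h held 3 libraries each. NFKBIA kept an interaction of -2.08, -2.05, -2.19, -2.16 and -2.11 over the times in order, with SEs of 0.15 to 0.16. SCNN1G, whose values depend on the pseudocount, stood at 0.65, 1.16, 1.15, 0.83 and 0.89.

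The difference of the interaction between times was tested as well. For genes called at 2 h this difference contains the 2 h values that chose them, which favours differences toward 0, so their counts and differences are a description and the values at 6 and 24 h come from libraries of their own. Between 2 and 6 h it became lower in 102 genes (0.765%) and higher in 40 (0.3%), or in 158 and 69 with the replicate number as a block, and between 2 and 24 h lower in 164 (1.23%) and higher in 334 (2.51%). Of the 46 negative genes 2 were called lower and 2 higher at 6 h than at 2 h, and 1 lower and 8 higher at 24 h. ZFP36 differed by 1.91 ± 0.45 at 6 h. VCAM1 went from -2.30 to -0.17 by 24 h (difference 2.13 ± 0.26) and CD69 from -1.62 to 0.02. IL6 instead went down to -4.02 at 6 h (difference -2.57 ± 0.50).

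Of the 27 positive genes 3 were called lower at 6 h and 15 at 24 h than at 2 h, and 0 higher, with the same limit. SERPINA3 went from 1.52 at 2 h to -1.72 ± 0.31 at 24 h, the only positive gene called in the other direction at another time, with a difference of -3.24 ± 0.44. SAA1 went from 2.23 to -0.92 ± 0.42 (difference -3.14 ± 0.59). NUAK2 went from 1.03 at 2 h to -0.73 ± 0.20 at 6 h (difference -1.76 ± 0.27). AXIN2 went to 0.60 ± 0.32 at 6 h (difference -1.55 ± 0.44). The metallothionein gene MT1M stood highest at 6 h, at 2.75 ± 0.37, and near 0 at 24 h. CTSE, which encodes the aspartic protease cathepsin E, was positive at 2, 6, 12 and 24 h, at 1.14, 2.03, 1.56 and 1.07. Its 2 h value ranged from 0.72 to 2.28 over the alternatives, and the call was lost with a pseudocount of 1 TPM.

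**Figure D5:**
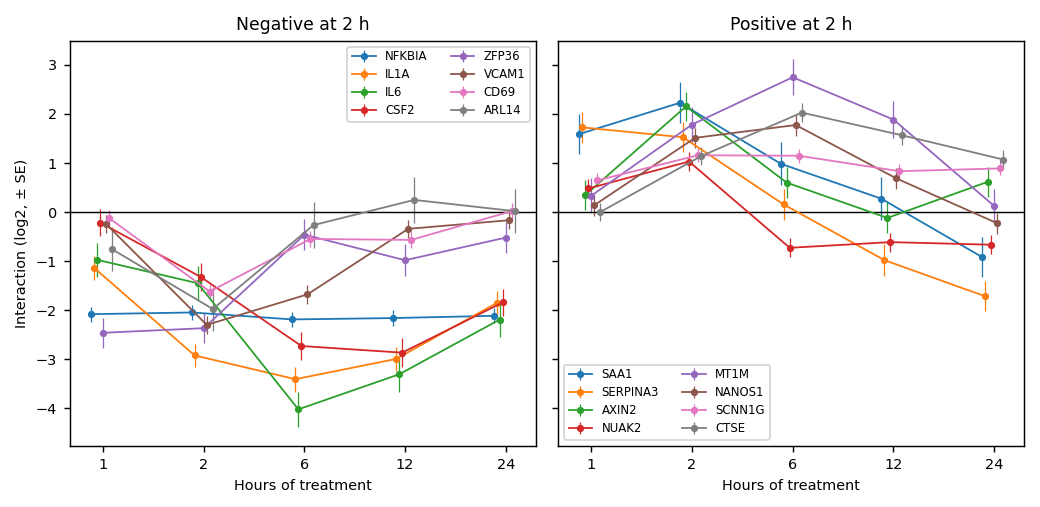
Interaction on the log2 scale (vertical axis, points with bars of 1 SE) at 1, 2, 6, 12 and 24 h (horizontal axis, evenly spaced) for 8 genes called negative (left) and 8 called positive (right) at 2 h. NFKBIA stays between -2.19 and -2.05, IL6 reaches -4.02 at 6 h, and SERPINA3 passes from 1.52 at 2 h to -1.72 at 24 h.

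Of the 73 calls, 54 held without any 1 of the 16 libraries of 2 h, and 30 held in addition under every other setting that tested them, 20 negative and 10 positive. Those 30 include IL1A, IL1B, IL23A, TNF, VCAM1, SELE, CD69, CD83, NFKBIA, BIRC3, ZFP36, CEBPD, RGS2 and CITED4 among the negative genes, and SERPINA3, AXIN2, ELF3, CNKSR3, MT1A, MT1M, NANOS1, RIPK4, PPP1R3B and TCHH among the positive ones. No called gene changed sign in any setting. Without the budesonide library number 3, CIART, CXCL6 (-1.18, adjusted p = 0.064), GBP2 (-0.89), IRAK3, NUAK2, SYDE1 (0.99) and TMEM265 (1.74, adjusted p = 0.106) lost the call. TMEM265 and SLAMF8 were not called in the blocked 2 h fit either (adjusted p = 0.193 and 0.0501). Leaving out 1 library ended the call of TMEM265 for 10 of the 16 libraries (1.71 to 1.95, limma adjusted p from 0.0526 to 0.117). It ended that of SYDE1 for 7 (0.85 to 0.99). Of the 73 genes, 14 share 20% or more of their 31-base words with other genes, led by TMEM265 at 98.3%. Among them are CCL15 (46.2%), ALPP (45.6%), SERPINA3 (30.3%), CCL5 (25.2%) and AXIN2 (25.0%). The share was not counted for all genes tested. Values of these genes may depend on how shared reads were divided, which was not tested.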

How the data were processed

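Stranded poly(A) libraries were quantified by the authors with kallisto on GRCh38 (hg38) and normalized with sleuth, per the labels and the study's methods; versions are not given in the sources used here. The deposited gene table holds TPM that the authors rescaled between libraries, used here as a normalized signal with no further scaling. Read counts per library are not part of TPM, so no counting interval is given. Other deposited columns hold the authors' own fold changes and adjusted p-values and were not used. Values of 1 library that the labels used here do not list (NS at 6 h, number 3) were not analysed.

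Groups came from the titles of the 78 libraries (20 groups). The labels speak of 4 independent experiments without tying a library to one, so p-values measure the spread between these samples. The 13327 genes that reached 1 TPM in 3 or more libraries were fitted, as log2 of the TPM plus 0.5, in limma 3.58.1 (R 4.3.3) with 1 mean per group, 58 residual degrees of freedom and a trend on mean level. The pseudocount understates the changes of low genes against NS, and can thereby lower or raise their interaction. IRAK3 and SCNN1G, for example, lost their positive call with 0.1 TPM. Tests were two-sided, and adjusted p-values are Benjamini-Hochberg over the 13327 genes of a contrast. Genes were called at an adjusted p of 0.05 or less and at least 1 on the log2 scale. Values after ± are SE for log2 values and for summed differences in TPM, and SD over 4 libraries for TPM means. The SE and p-values of log2 values use 1 estimate of the spread of a gene over all 20 groups. Where some groups lie near 0 with little spread, they can understate the spread of the others. Differences between the interactions at 6 or 24 h and at 2 h were tested in the same fit, and for genes called at 2 h are given as values. Single-agent contrasts at 2 h share libraries with the interaction and are given only as values. The fit was tested on simulated data.

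Same-numbered libraries of different groups at 2 h deviated together from their group means (24 of 24 pairs correlated over 0.1, from 0.14 to 0.512, median 0.28, against -0.13 for other pairs), so at 2 h the numbers appear to pair the samples. Over all times this held for 615 of 723 pairs. Deviations within a group sum to 0, so positive same-numbered pairs push the others below 0. Some other pairs were positive too, up to 0.223 for cotreated number 1 with budesonide number 2. The main fit has no block. The pairing comes from this check and not from the labels, and a fit with the number as a block is given where it changed a call.

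Genes were named by rule: the 12 lowest and 12 highest called interactions with a highest 2 h group mean of at least 5 TPM, genes the study names, from each gene list the called members and up to 4 with the smallest p, and the 5 lowest and highest called differences between times. Other called genes named (among them CD69, CD83, PIM1, OLR1, F3, C15orf48, GMPR, ALPP, CIART, LRRC32, PPP1R3B, VASN, NUAK2, MT1M, CTSE, CCL15, CCL4L2, SYDE1 and TMEM265) were chosen after their values were seen. 1 called gene is counted but not reported by name or value here. The comparison and lists were chosen with earlier results of these data known. Sharing of 31-base words, the word length of kallisto, was counted over GENCODE v44 transcripts on either strand. Alternatives covered the pseudocount, the filter, the scaling, the trend, array weights, the block, the 16 libraries of 2 h alone and leaving out each library.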

Additional observations from a re-analysis of the deposited data

Results flagged for a closer look

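Of the 288 groups of 4 libraries of 72 called genes at 2 h, 23 (7.99%) held 1 library that lay far from the other 3 (by Dixon's test at the 95% level), where chance flags about 5% of groups. In 5 of the 23 (VCAM1, SELE and TNF in NS, CSF2 and MT1M with budesonide) the other 3 libraries were at 0, so that any value above 0 was flagged and the chance rate does not apply. Without these and 12 groups with every library at 0, 18 of 271 (6.64%) were flagged. Among NS libraries these were IL23A at 0.352 TPM in number 4, VCAM1 at 0.0342 TPM in number 3, SELE at 0.0122 TPM in number 3, TNF at 0.0262 TPM in number 3, ZC3H12A at 9.91 TPM in number 4, NEURL3 at 0.131 TPM in number 1, SCNN1G at 0.0594 TPM in number 1 and SAA1 at 1.08 TPM in number 4. Among cotreated libraries this was CITED4 at 6.14 TPM in number 1. Among budesonide libraries these were PIM1 at 13.7 TPM in number 3, CSF2 at 0.0635 TPM in number 3, NEURL3 at 0.167 TPM in number 4, LRRC32 at 0.422 TPM in number 1, FOSL1 at 4.20 TPM in number 4, IRAK3 at 0.104 TPM in number 3, SERPINA3 at 6.94 TPM in number 3 and MT1M at 0.744 TPM in number 2. Among IL-1β libraries these were CEBPD at 89.5 TPM in number 4, HS3ST3B1 at 5.46 TPM in number 1, SOCS1 at 0.268 TPM in number 4, VASN at 1.84 TPM in number 3, IRAK3 at 0.308 TPM in number 3 and TMEM265 at 0.133 TPM in number 2. Of these flags 4 fell on the budesonide library number 3 and 3 each on the NS libraries number 3 and number 4.

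The interaction differed between times, by the limma test of the difference, in these genes called at 2 h, whose choice on the 2 h values favours differences toward 0. At 6 h minus 2 h the differences were ZFP36 (1.91), CD69 (1.07), IL6 (-2.57), ALPP (-1.57), NUAK2 (-1.76), CCL4L2 (-1.24) and AXIN2 (-1.55). At 24 h minus 2 h they were IL1A (1.07), ZFP36 (1.85), VCAM1 (2.13), ARL14 (1.99), CD69 (1.64), PIM1 (1.28), CXCL6 (-1.65), SOWAHB (1.21), FOSL1 (1.29), NUAK2 (-1.70), VASN (-1.49), SLAMF8 (-1.02), ARHGAP9 (-1.20), JPH2 (-1.09), PPP1R3B (-1.24), CCL4L2 (-1.31), RIPK4 (-1.28), NANOS1 (-1.74), SERPINA3 (-3.24), TCHH (-1.74), MT1M (-1.66), TMEM265 (-2.63), AXIN2 (-1.53) and SAA1 (-3.14). Genes not called at 2 h but with 1 of the largest differences at 6 or 24 h were, with the called differences at 6 h, IFIT1 (-4.30), EEPD1 (1.79), TNS2 (1.53), IFI6 (-3.21), CMPK2 (-3.73), OASL (-3.97), CXXC5 (1.66), IFI27 (-4.24), NRG2 (1.63) and MX1 (-4.30), and with those at 24 h, CIP2A (3.51), NT5DC4 (4.87), IFIT1 (-1.85), TNS2 (1.17), IFI6 (-3.58), KNL1 (2.63), OASL (-1.48), IFI27 (-5.64), BCAS1 (2.69), ORM1 (2.95), MX1 (-1.94) and C3 (-3.18). IFIT1, OASL, IFI27, IFI6, MX1 and CMPK2 are interferon-stimulated genes, and their interactions at 2 h lay between -0.39 and 0.46.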

How the results depend on the processing

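Over the alternatives tried, the counts at 2 h ran within 1.5 times of 46 negative and 27 positive genes, with these exceptions. With a mean of at least 5 TPM required there were 18 and 10, and between times 48 lower and 19 higher at 6 h and 88 lower at 24 h. With no minimum size there were 86 and 60. With only the 16 libraries of 2 h and without the budesonide library number 3, a setting chosen after seeing the data, 15 were positive (36 negative). The differences from 2 to 6 h numbered 158 lower and 69 higher with the replicate block and 156 and 96 with array weights, which gave the budesonide library number 3 a weight of 0.151. The replicate block kept all 73 calls at 2 h (56 negative and 28 positive in all) and added LCN2 and GBP1 among the named genes. Together with restriction to the 16 libraries it lost 11 of the 73 calls (44 negative and 26 positive in all), while that restriction alone lost 21 (32 and 21 in all). A pseudocount of 0.1 or 1 TPM ended 22 and 20 calls, respectively, and median-of-ratios or quantile scaling 3 and 5. Without single libraries the counts ran from 42 to 49 and from 23 to 30 at 2 h, from 92 to 110 lower and 31 to 44 higher at 6 h, and from 151 to 177 lower and 304 to 378 higher at 24 h. No called gene changed sign. The number of libraries, and TPM that keep no read counts, limit what can be said of genes near 0 TPM: 15 of the 46 negative and 13 of the 27 positive genes had no group mean of 5 TPM. The cause of these changes was not tested beyond the smaller number of genes or libraries that a setting leaves.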
